A study of Homo sapiens and Mus musculus with 54 samples.

Results

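The circadian clock genes studied here were BMAL1 (ARNTL in older tables), CLOCK, NPAS2, PER1, PER2, PER3, CRY1, CRY2, NR1D1 and DBP, 10 of 19974 protein-coding genes of the autosomes and X. They were chosen by name, with earlier results of these data known. An entry of a peak list was taken as theirs when it lay within 50 kb of the RefSeq gene body on hg38. Under this rule the 10 genes held 81 of 56739 peaks of the aryl hydrocarbon receptor (AhR), 93 of 62761 C/EBPα peaks, 161 of 106666 H3K27ac regions of the untreated experiment and 155 of 97145 H3K27ac regions of the AhR inhibitor experiment. No entry was shared by 2 of the 10 genes.

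The lists came from ChIP-seq of HepG2, an established human liver cancer cell line, sampled on day 12. For AhR and for C/EBPα, a liver transcription factor, 2 vitamin B2-deficient and 2 control libraries each were made. For H3K27ac, an acetylation of histone H3 found at active regulatory elements, there were 5 B2-deficient and 5 control libraries. A further H3K27ac experiment had 2 B2-deficient libraries with an AhR inhibitor, 2 B2-deficient libraries with DMSO and 2 control libraries with DMSO. All these libraries came from the same cell line, so none represents normal hepatocytes, and the inhibitor is not named in the labels. Each deposited list gives positions and no value for a library. A difference between B2-deficient and control cells, or between inhibitor and vehicle, was therefore not measured at any clock gene. In the untreated H3K27ac list the hepatocyte markers ALB, HNF4A, SERPINA1, TF and APOA1 had 61, 39, 41, 52 and 10 regions within 50 kb. Of markers of other cell types, the leukocyte gene PTPRC had 1 and the macrophage gene CD68 had 2, while the windows of the endothelial gene PECAM1 and the collagen gene COL1A1 held 41 and 17. Inside the gene body there were 24 regions at ALB, 26 at HNF4A, 12 at SERPINA1, 43 at TF and 0 at APOA1. PECAM1 had 20 inside the gene body, COL1A1 had 2, and PTPRC and CD68 had 0.

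The clock is a loop of transcription and repression. CLOCK or its paralog NPAS2 pairs with BMAL1, and the pair activates genes through E-box elements, among them the PER and CRY genes, whose proteins return to the nucleus and repress their activators. In an added loop REV-ERBα, the nuclear receptor encoded by NR1D1, represses BMAL1, and DBP, a bZIP activator, carries rhythm to output genes of the liver. CLOCK, NPAS2 and BMAL1 belong to the bHLH-PAS family, as do AhR and its partner ARNT, and the PER proteins also carry PAS domains. Cryptochromes can bind FAD, a cofactor made from vitamin B2.

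AhR peaks lay close to the starts of most of these genes. In 7 of the 10 genes an AhR peak was centred within 1 kb of a gene start, against 14.9% of the 15813 protein-coding genes with a start in the RefSeq promoter table. C/EBPα also had a centre within 1 kb of a start in 7 of 10, against 22.2% of genes. Both factors were there at 5 genes, NPAS2, PER2, PER3, NR1D1 and DBP, against 8.06% of genes. CRY1 and CRY2 had AhR alone, CLOCK and PER1 had C/EBPα alone, and BMAL1 had neither. The distance of 1 kb was chosen after the positions had been seen, so these counts are a description. The count was also 7 within 500 bp (10.6% of genes) and 8 within 2 kb (21.6% of genes), but with merged AhR peaks only it was 4 (4.07% of genes). A merged peak is one whose name ends in 2 or more, read as the number of peaks joined into the entry.

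The promoter windows of 8 genes are shown to place the peaks against their sequence. They are RefSeq sequences of GRCh38.p14 that run from 250 bases before the gene start to 49 bases after it, with the start counted as 0, and were read 5′ to 3′ on the strand of the gene. All 10 genes had at least 1 window in the table, 14 windows in all. Capitals mark matches, on either strand, to 6 searched motifs. The E-box was searched as CACGTG. The core of the AhR-ARNT response element was searched as GCGTG, which appears as CACGC where it lies on the other strand. The D-box, the site of DBP and its relatives, was searched as TTATGTAA or as TTACGTAA. The C/EBP motif was TTGCNNAA. The core bound by REV-ERB and ROR receptors was searched as TAGGTCA or as TGGGTCA. The cAMP response element was TGACGTCA. No match overlapped a match to another of these motifs in the 14 windows.

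NR1D1, PER3, NPAS2, PER2, CRY2 and CRY1 are shown because an AhR peak covers part of the window. PER1 is shown for a C/EBPα peak without AhR, and BMAL1 as the gene with neither factor near a start. The windows are NR1D1 chr17:40100540-40100839 (minus strand), PER3 chr1:7784041-7784340 (plus), NPAS2 chr2:100819889-100820188 (plus), PER2 chr2:238288561-238288860 (minus), CRY2 chr11:45847225-45847524 (plus), CRY1 chr12:107093500-107093799 (minus), PER1 chr17:8152355-8152654 (minus) and BMAL1 chr11:13277540-13277839 (plus).
NR1D1: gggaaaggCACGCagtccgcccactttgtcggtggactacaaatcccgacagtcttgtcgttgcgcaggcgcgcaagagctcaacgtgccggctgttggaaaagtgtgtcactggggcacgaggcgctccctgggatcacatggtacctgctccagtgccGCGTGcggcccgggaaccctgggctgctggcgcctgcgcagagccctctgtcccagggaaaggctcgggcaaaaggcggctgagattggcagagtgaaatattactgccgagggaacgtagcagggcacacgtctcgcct
PER3: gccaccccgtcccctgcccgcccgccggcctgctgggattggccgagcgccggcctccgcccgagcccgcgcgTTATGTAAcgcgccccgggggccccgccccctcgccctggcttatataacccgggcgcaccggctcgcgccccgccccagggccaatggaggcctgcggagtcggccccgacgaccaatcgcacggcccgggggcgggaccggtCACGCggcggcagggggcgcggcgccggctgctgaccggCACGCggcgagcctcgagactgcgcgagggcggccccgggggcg
NPAS2: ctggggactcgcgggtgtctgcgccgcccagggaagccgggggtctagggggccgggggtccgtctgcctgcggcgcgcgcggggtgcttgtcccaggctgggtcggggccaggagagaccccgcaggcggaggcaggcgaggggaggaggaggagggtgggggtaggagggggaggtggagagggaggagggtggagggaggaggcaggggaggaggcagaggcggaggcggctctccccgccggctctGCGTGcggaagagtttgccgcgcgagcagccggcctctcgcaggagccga
PER2: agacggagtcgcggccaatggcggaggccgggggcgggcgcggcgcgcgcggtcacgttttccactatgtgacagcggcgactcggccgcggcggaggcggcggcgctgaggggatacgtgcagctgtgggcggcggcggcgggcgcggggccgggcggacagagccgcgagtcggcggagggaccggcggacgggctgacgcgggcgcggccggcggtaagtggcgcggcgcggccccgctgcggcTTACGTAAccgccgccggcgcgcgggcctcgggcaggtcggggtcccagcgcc
CRY2: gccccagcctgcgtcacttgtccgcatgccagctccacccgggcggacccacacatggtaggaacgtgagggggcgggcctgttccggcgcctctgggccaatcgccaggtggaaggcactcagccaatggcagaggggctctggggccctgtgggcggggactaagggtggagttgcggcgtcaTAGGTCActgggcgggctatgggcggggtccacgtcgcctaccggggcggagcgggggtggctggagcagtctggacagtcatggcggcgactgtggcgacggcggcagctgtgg
CRY1: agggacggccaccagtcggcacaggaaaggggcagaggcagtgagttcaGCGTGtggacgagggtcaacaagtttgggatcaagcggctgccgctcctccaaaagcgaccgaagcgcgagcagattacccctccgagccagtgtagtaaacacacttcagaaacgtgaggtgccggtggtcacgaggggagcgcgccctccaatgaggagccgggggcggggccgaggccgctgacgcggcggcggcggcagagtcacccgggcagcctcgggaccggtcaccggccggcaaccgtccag
PER1: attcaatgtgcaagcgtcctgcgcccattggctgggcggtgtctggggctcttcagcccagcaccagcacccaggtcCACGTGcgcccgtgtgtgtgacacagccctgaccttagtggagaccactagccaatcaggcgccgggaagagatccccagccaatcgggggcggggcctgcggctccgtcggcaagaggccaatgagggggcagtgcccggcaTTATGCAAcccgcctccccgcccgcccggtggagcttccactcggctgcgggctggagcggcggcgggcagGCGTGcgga
BMAL1: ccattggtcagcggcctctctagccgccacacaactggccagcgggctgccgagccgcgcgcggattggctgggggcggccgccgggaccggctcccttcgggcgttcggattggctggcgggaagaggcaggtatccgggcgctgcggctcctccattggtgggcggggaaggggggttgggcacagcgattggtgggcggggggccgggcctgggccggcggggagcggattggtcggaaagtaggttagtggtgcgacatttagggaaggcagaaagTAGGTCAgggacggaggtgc

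An AhR peak covered 218 bases of the NR1D1 window, from position -236 to -19, with a GCGTG match at -90 to -86 under it and another at -242 to -238 outside it. In the PER3 window the AhR peak covered 267 bases, from -250 to 16, and a C/EBPα peak covered 166 bases, from -250 to -85. The D-box TTATGTAA at -177 to -170 lay under both peaks, and the 2 GCGTG matches, at -33 to -29 and at 6 to 10, lay under the AhR peak alone. At NPAS2 the AhR peak covered positions -130 to 49 and the single GCGTG match stood at the start itself, from 0 to 4. These 3 genes were those whose AhR-covered bases held the core letters.

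PER2 divided the factors along its window. The AhR peak covered positions -250 to -157, which held none of the searched motifs, and the C/EBPα peak covered -105 to 49, including the D-box TTACGTAA at -3 to 4. At CRY2 the AhR peak covered -250 to -105 and the REV-ERB/ROR core at -65 to -59 lay outside it. At CRY1 the AhR peak covered 36 bases, from -250 to -215, and the GCGTG match at -201 to -197 lay outside it. In the PER1 window a C/EBPα peak covered -139 to 49, with the C/EBP match TTATGCAA at -30 to -23 beneath it. The only E-box CACGTG of the 14 windows stood in the PER1 window at -173 to -168, outside that peak. BMAL1 carried the core TAGGTCA at 30 to 36, the kind of element through which REV-ERBα is known to act on this gene, with no peak over the window.

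GCGTG stood in 8 of the 14 clock windows and in 42.9% of 22035 windows of protein-coding genes. Of the 7 clock windows under an AhR peak, 5 held it, against 50.7% of all windows under an AhR peak and 42.3% of windows under none. The median GC content was 70.2% in clock windows and 62.3% in all windows, and its part in the matches was not tested. The D-box was in 2 of 14 clock windows and in 0.79% of all windows, the E-box in 1 of 14 and 8.31%, and the REV-ERB/ROR core in 3 of 14 and 4.92%. The C/EBP motif was in 1 of 14 and 8.69%, and the cAMP element in 0 of 14 and 2.25%. The 2 PER3 windows overlap each other, so the windows are not separate observations.

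No H3K27ac region of either experiment was centred within 1 kb of a listed start of a clock gene, nor within 3 kb. At PER2 the only listed start lies inside the gene body, whose 5′ end is at chr2:238300065. A region found in both lists, chr2:238299840-238300283, spans that end, 11.5 kb before the listed start. Over all genes the share with a region within 1 kb of a start was 1.71% in the untreated list and 1.64% in the inhibitor list. The nearest untreated region lay 3.24 kb from a listed start at NR1D1, 3.31 kb at CRY2, 3.71 kb at PER2, 3.75 kb at NPAS2, 3.82 kb at DBP and 4.16 kb at PER1. It lay 6.63 kb away at CLOCK, 8.29 kb at CRY1, 14.9 kb at BMAL1 and 31.3 kb at PER3. The whole untreated list shows the same edge. For whole lists, distances were taken from every start in the promoter table, with no filter for protein-coding genes. Within 1 kb of such starts the untreated list held 2374 regions, while 270 of 15813 protein-coding genes had one that near an own start. It held 646 regions from 2.5 to 3 kb of the nearest gene start and 2001 from 3 to 3.5 kb, a ratio of 3.1. That ratio was 0.945 for AhR and 0.936 for C/EBPα. The absence of a region next to a start is therefore no measure of acetylation there. What made the edge was not tested.

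**Figure D1:**
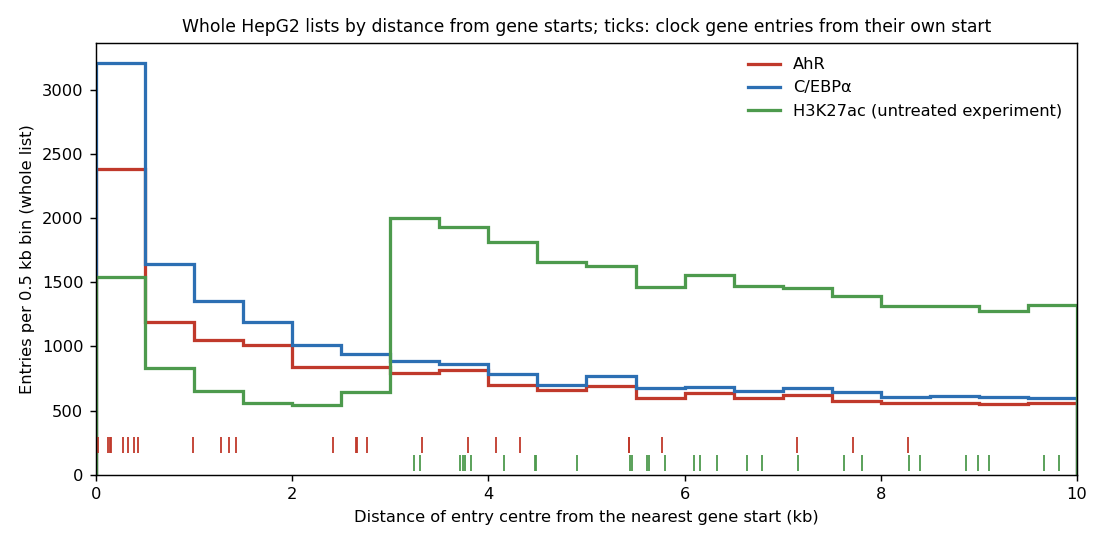
Entries of the whole HepG2 lists in bins of 0.5 kb (vertical axis, number) by the distance of their centre from the nearest gene start in kb (horizontal axis). Starts are all those of the promoter table, with no filter for protein-coding genes. Ticks mark the clock gene entries by distance from their own start, AhR above and untreated H3K27ac below; the H3K27ac line stands at 646 just inside 3 kb and at 2001 just outside, and no H3K27ac tick lies inside 3 kb.

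Within the wider window every one of the 10 clock genes had an AhR peak, and so did 85.4% of all protein-coding genes, so this count does not set the clock genes apart. The same held for C/EBPα (10 of 10, against 88.6%), for the untreated H3K27ac list (10 of 10, against 90.4%) and for the inhibitor list (10 of 10, against 88.1%). The median was 6 AhR peaks per clock gene and 4 over all genes. For C/EBPα the medians were 7.5 and 4, and for untreated H3K27ac 11.5 and 7. Windows differ in length and hold 1 to 7 other protein-coding genes, so densities per 100 kb of window are given beside the counts.

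**Figure D2:**
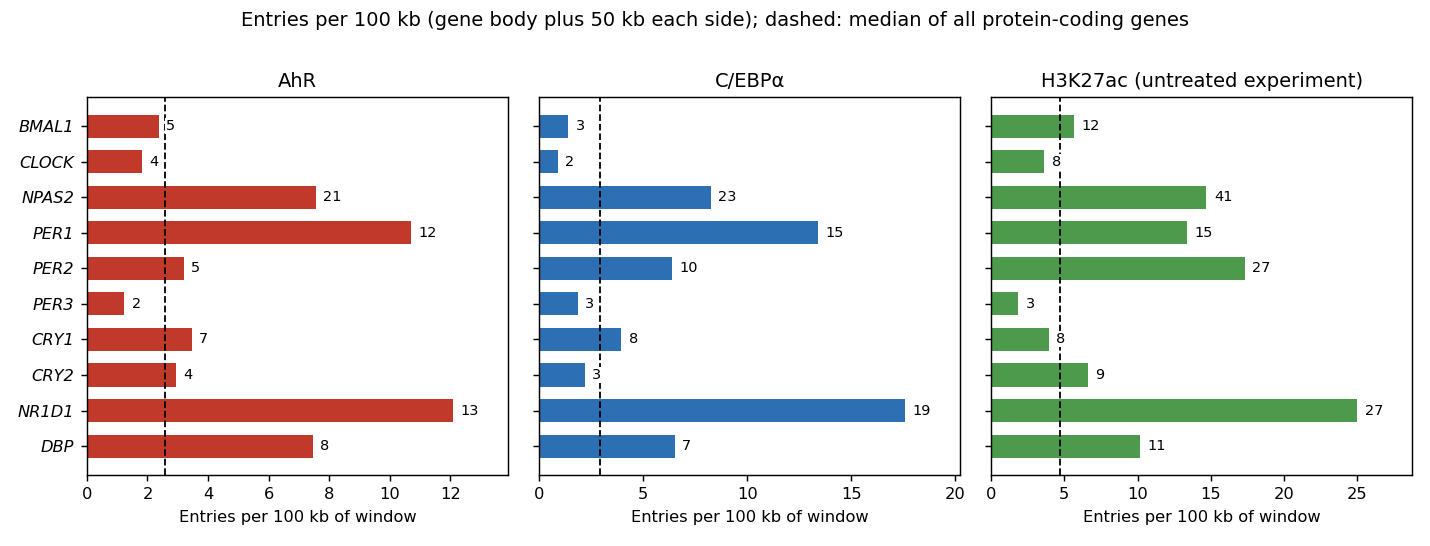
Entries per 100 kb of window (horizontal axis; gene body plus 50 kb on each side) for each clock gene in the AhR, C/EBPα and untreated H3K27ac lists, with the number of entries at each bar. Dashed lines mark the median of all protein-coding genes, 2.58 for AhR, 2.94 for C/EBPα and 4.72 for H3K27ac; NR1D1 has the longest bar in all 3 panels.

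Among the activators, NPAS2 had more entries of all 3 lists than BMAL1 or CLOCK. NPAS2 had 21 AhR peaks, 7.55 per 100 kb. Of protein-coding genes, 98.7% had fewer peaks and 92% had a lower density. It also had 23 C/EBPα peaks and 41 H3K27ac regions. BMAL1, the obligate partner of the loop, had 5 AhR peaks (2.37 per 100 kb), 3 C/EBPα peaks and 12 H3K27ac regions. CLOCK, the histone acetyltransferase paralog of NPAS2, had 4 AhR peaks (1.83 per 100 kb), 2 C/EBPα peaks and 8 H3K27ac regions. The AhR densities of BMAL1 and CLOCK were below the median of all genes, 2.58 per 100 kb.

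The NPAS2 peaks (gene ID 4862, chr2:100818723-100996829) formed a run along the front of the gene. Upstream, 4 AhR peaks lay 39.8, 39.3, 23.2 and 5.43 kb before the start, and each was merged and met an entry of both other lists. At the start itself the peaks at chr2:100818996-100819309 and chr2:100820009-100820224 overlapped neither. Inside the gene, 12 AhR peaks stood between 23.2 and 82.9 kb from the start. All 12 overlapped an H3K27ac region, 5 overlapped a C/EBPα peak and 5 were merged. NPAS2 was the nearest gene for 20 of its 21 AhR peaks, and 10 of the 21 overlapped both other lists.

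At BMAL1 (gene ID 406, chr11:13276652-13387266) all 5 AhR peaks lay inside the gene, the nearest 39.7 kb from a start. Of these, 4 overlapped an H3K27ac region and 1, at chr11:13333692-13333939, overlapped a C/EBPα peak as well. The 4 AhR peaks of CLOCK (gene ID 9575, chr4:55427903-55546909) also lay inside the gene, the nearest 77 kb from a start. A trio of them, chr4:55437604-55437807, chr4:55438454-55438699 and chr4:55439069-55439308, stood 107 to 108 kb from the start, where the gene body overlaps that of TMEM165. All 4 overlapped an H3K27ac region and none a C/EBPα peak, while the C/EBPα peak of CLOCK nearest a start was 545 bp from it.

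**Figure D3:**
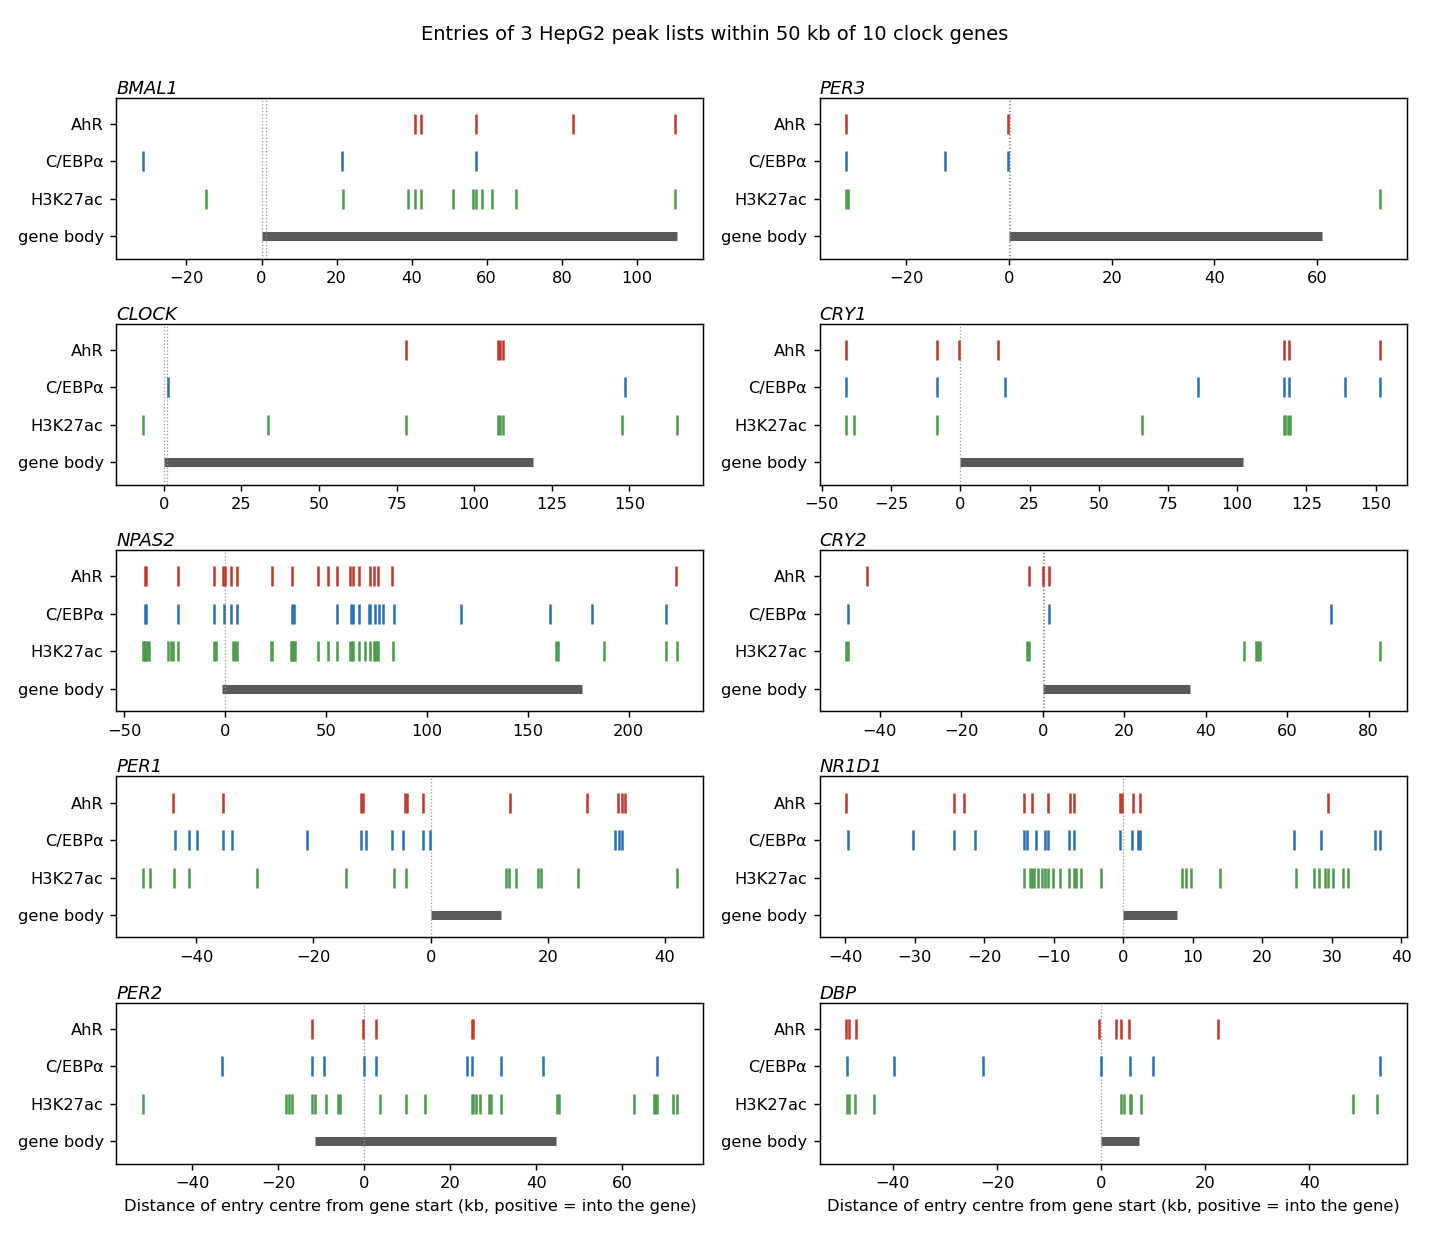
Centres of AhR peaks, C/EBPα peaks and untreated H3K27ac regions (ticks) by distance in kb from the outermost listed gene start, positive into the gene, for each of the 10 clock genes. Grey bars are gene bodies and dotted lines the listed starts; NPAS2 shows the run of 12 AhR peaks from 23.2 to 82.9 kb, and BMAL1 and CLOCK have no AhR tick near a start.

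The repressors held 30 AhR peaks in all, and 4 of the 5 genes had one within 1 kb of a start. PER1 had the most, with 12 AhR peaks (10.7 per 100 kb), 15 C/EBPα peaks and 15 H3K27ac regions. None of the AhR peaks lay inside PER1 (gene ID 5187, chr17:8140472-8152404), and PER1 was the nearest gene for 2 of the 12. The others were nearest to ALOXE3, HES7, VAMP2 or BORCS6. Of the 2, the merged peak at chr17:8153615-8153909 stood 1.36 kb before the start and overlapped a C/EBPα peak.

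PER2 (gene ID 8864, chr2:238244044-238300065) had 5 AhR peaks, 10 C/EBPα peaks and 27 H3K27ac regions, and was the nearest gene for all 5 AhR peaks. Its AhR density was 3.2 per 100 kb, and its H3K27ac density of 17.3 per 100 kb was above that of 93.6% of genes. The AhR peak at chr2:238288767-238289010, centred 278 bp before the listed start, was merged. The peak at chr2:238263457-238263685, 25 kb after the listed start, overlapped both other lists. So did the one 12.1 kb before the listed start, which lay 512 bp outside the 5′ end of the gene body. PER3 (gene ID 8863, chr1:7784291-7845177) had 2 AhR peaks, 3 C/EBPα peaks and 3 H3K27ac regions. Its AhR peak at the start, chr1:7783980-7784307, was merged and overlapped a C/EBPα peak. The other, 31.7 kb before the start, overlapped both lists and lay nearest to CAMTA1.

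The cryptochrome genes, whose products complete the repressor complex with the PER proteins, differed in where their peaks met the other lists. CRY1 (gene ID 1407, chr12:106991364-107093549) had 7 AhR peaks, 8 C/EBPα peaks and 8 H3K27ac regions. Of its AhR peaks, 5 were merged and the same number overlapped a C/EBPα peak, while 4 overlapped both other lists. Those 4 stood 8.28 and 41.1 kb before the start and 117 and 119 kb after it, the last pair beyond the gene end and nearest to MTERF2 and TMEM263. The CRY1 peak by the start, chr12:107093764-107093994, centred 330 bp before it, overlapped neither list. CRY2 (gene ID 1408, chr11:45847118-45883244) had 4 AhR peaks, 3 C/EBPα peaks and 9 H3K27ac regions, and none of its AhR peaks overlapped both lists. Its AhR peak at chr11:45847169-45847370, 152 bp from a start, overlapped neither, and the merged peak at chr11:45848613-45848882 overlapped a C/EBPα peak.

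NR1D1 (gene ID 9572, chr17:40092793-40100589) had the densest window of the 10 genes in all 3 lists. Its 13 AhR peaks made 12.1 per 100 kb, above 98.7% of genes, its 19 C/EBPα peaks 17.6 per 100 kb, above 99.8%, and its 27 H3K27ac regions 25 per 100 kb, above 98.3%. By count, 93.4%, 97.7% and 94.1% of genes had fewer. Inside the gene body lay 2 of the AhR peaks, 3 of the C/EBPα peaks and 0 of the H3K27ac regions. Most of the C/EBPα peaks and H3K27ac regions were nearest to other genes, chiefly THRA and MSL1. A group of 4 merged AhR peaks lay at or in the gene. They were centred 433 and 128 bp before the start, at chr17:40100911-40101133 and chr17:40100608-40100825, and 1.43 and 2.42 kb after it, at chr17:40099048-40099269 and chr17:40098062-40098284. All but the one 128 bp before the start overlapped a C/EBPα peak. Of the 5 AhR peaks 7.14 to 14.2 kb before the start, 4 overlapped both other lists. NR1D1 was the nearest gene for 6 of the 13, and MSL1, CASC3 and THRA were nearest to the rest.

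DBP (gene ID 1628, chr19:48630030-48637379) had 8 AhR peaks (7.45 per 100 kb), 7 C/EBPα peaks and 11 H3K27ac regions. Of the AhR peaks, 3 lay inside the gene and DBP was nearest to those 3. The merged peak at chr19:48637649-48637882, 386 bp before the start, lay nearer to CA11 and overlapped neither list. The C/EBPα peak at chr19:48637222-48637452 was centred 42 bp into the gene and had a merge number of 3. A group of 3 AhR peaks 47.1 to 48.9 kb before the start overlapped H3K27ac regions and lay nearest to FUT2.

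Over the 81 AhR peaks of the clock genes, 25 (30.9%, 95% Wilson interval 21.9 to 41.6) shared at least 1 bp with both other lists, C/EBPα and untreated H3K27ac, against 41.1% of the whole list. Another 25 overlapped H3K27ac alone, 14 C/EBPα alone and 17 neither, against 29.5%, 14.2% and 15.1% of the whole list. At least 1 peak with both partners stood at 8 of the 10 genes, against 62.2% of all genes, and CLOCK and CRY2 had none. Each of the 10 genes had at least 1 merged AhR peak, against 66.3% of all genes, and merged peaks were 42% of the clock gene AhR peaks (34 of 81) and 42.3% of the list. These intervals cover counting error over peaks only, and neighbouring peaks are not independent.

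**Figure D4:**
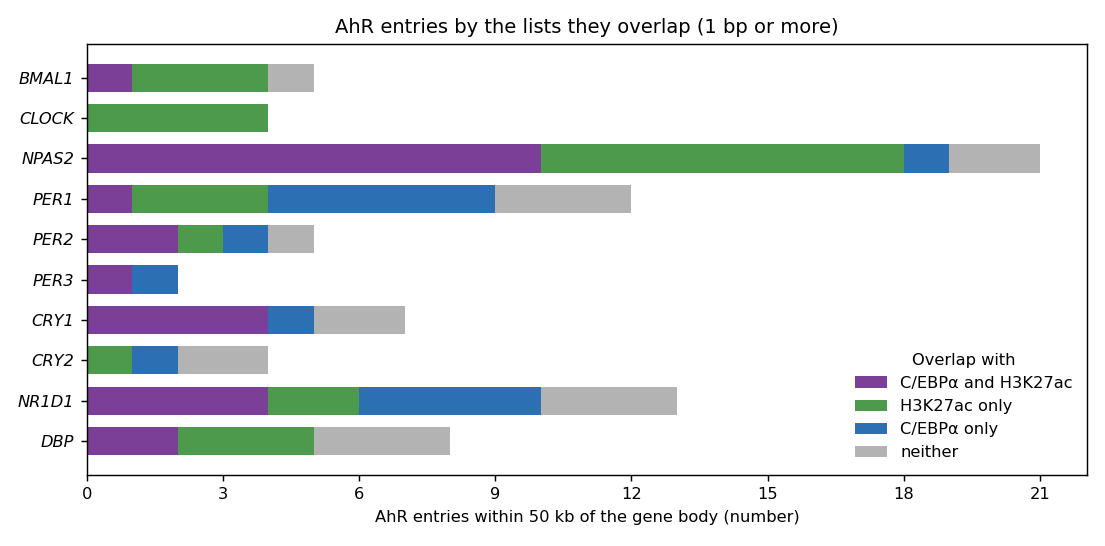
AhR peaks within 50 kb of each clock gene (horizontal axis, number), divided by whether they meet the C/EBPα list, the untreated H3K27ac list, both or neither (1 bp or more). NPAS2 has 10 of the 25 peaks with both partners, and the 4 peaks of CLOCK overlap H3K27ac alone.

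The overlap of clock gene AhR peaks with H3K27ac was split at 3 kb from gene starts, the edge of the H3K27ac list. Of the 53 AhR peaks centred more than 3 kb from every gene start, 50 overlapped an H3K27ac region (94.3%, 95% Wilson interval 84.6 to 98.1), against 78.3% of such peaks in the whole list. Of the 28 within 3 kb of a gene start, 0 did (95% Wilson interval 0 to 12.1), against 19.2% in the whole list. Of the whole untreated H3K27ac list, 4.47% of regions lay within 3 kb of a gene start. At clock genes 0 lay within 3 kb of an own start, so AhR peaks there had few regions to overlap. The 0 of 28 is therefore no measure of acetylation at those peaks. The part of the edge in both shares was not tested. Gene starts here were again all those of the promoter table, with no filter for protein-coding genes. The whole-list shares were not split by kind of gene. The 3 distant peaks without H3K27ac were 2 at CRY1, chr12:106941848-106942102 and chr12:107079692-107079909, and 1 at NR1D1, chr17:40140334-40140540. Among distant peaks 47.2% overlapped both lists (95% Wilson interval 34.4 to 60.3), close to the 45.6% of the whole list. Of the 9 AhR peaks within 1 kb of a clock gene's own start, 2 overlapped a C/EBPα peak and 5 were merged. Of the 14 clock gene peaks within 1 kb of any gene start, 3 overlapped a C/EBPα peak (21.4%, 95% Wilson interval 7.57 to 47.6), against 45.1% of such peaks in the whole list. Of these 14, 6 were merged (42.9%, 95% Wilson interval 21.4 to 67.4), against 28.7% in the whole list, so both intervals spanned the value of the list. Where AhR and its partner overlapped, centres lay a median of 25.5 bp apart for C/EBPα and 34 bp for H3K27ac, against 21.5 and 26.5 bp in the whole lists.

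Seen from the other lists, 39 of the 93 clock gene C/EBPα peaks overlapped an AhR peak (41.9%, 95% Wilson interval 32.4 to 52.1), against 50.1% of the whole C/EBPα list. Merged entries were 69.9% of the clock gene C/EBPα peaks (65 of 93, 95% Wilson interval 59.9 to 78.3) and 59.6% of the list. Of the 161 untreated H3K27ac regions, 49 overlapped an AhR peak (30.4%, 95% Wilson interval 23.9 to 37.9), against 37.8% of the list, and 39 overlapped a C/EBPα peak (24.2%, 95% Wilson interval 18.3 to 31.4), against 28.9%. These 3 shares of overlap were lower at the clock genes than in the whole lists, and each interval spanned the value of the list.

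Of the 7 C/EBPα peaks within 1 kb of a clock gene start, 5 had a merge number of 3, the highest among clock gene C/EBPα peaks. That number was also carried by 43 of all 93 clock gene C/EBPα peaks (46.2%, 95% Wilson interval 36.5 to 56.3), against 39% of the whole list. A count within 1 kb of any gene start also took in starts other than those of the clock genes. There that number was carried by 11 of 16 peaks in the clock gene windows (68.8%, 95% Wilson interval 44.4 to 85.8), against 42.3% of such peaks in the list. Besides that of DBP, those by the genes' own starts were at NPAS2 (chr2:100819392-100819624, 631 bp before the start), PER1 (chr17:8152316-8152543, 26 bp before it), PER3 (chr1:7783987-7784206, 194 bp before it) and NR1D1 (chr17:40100905-40101155, 441 bp before it). The NPAS2 peak stood between the 2 AhR peaks of that start, 986 and 22 bp before it, and touched neither. At PER2 the C/EBPα peak at chr2:238288497-238288715 was centred 4 bp after the listed start, with a merge number of 2. It also did not touch the AhR peak 278 bp before that start.

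The 2 H3K27ac lists were nearly the same at clock genes. Of the 161 untreated regions, 149 (92.5%, 95% Wilson interval 87.4 to 95.7) had identical coordinates in the inhibitor list, against 87.4% of the whole untreated list. Over that whole list 93202 of 106666 regions overlapped the inhibitor list, and all 93202 had identical coordinates. How the regions of each list were defined is not stated, so this agreement cannot be read as a repeat by separate peak calls. All 41 regions of NPAS2, 3 of PER3 and 11 of DBP were in both. The 12 untreated regions absent from the inhibitor list stood at 7 genes, and BMAL1 had the most, 3 of its 12. Of these 12, 1 overlapped an AhR peak, the BMAL1 region at chr11:13317348-13317673 with the merged AhR peak at chr11:13317346-13317633. The inhibitor list had 6 clock gene regions absent from the untreated list, and 0 of them overlapped an AhR peak. Over the whole lists the share of unshared regions with an AhR peak was not computed. These counts therefore have no background and do not set the unshared regions apart. The share of inhibitor list regions that were also in the untreated list was 96.1% at clock genes (149 of 155) and 95.9% over the whole list. Neither list gives values by condition, so these differences do not compare inhibitor with vehicle.

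Of 17 other genes of the clock, all 17 had an AhR peak within 50 kb, against 85.4% of genes, with a median of 5 peaks. RORA, a nuclear receptor that opposes REV-ERBα at its elements, had the most, 28 peaks over a long gene (3.33 per 100 kb). CSNK1D, a kinase of PER proteins, had 18, HLF, a bZIP relative of DBP, had 14, and BHLHE40, a repressor that binds E-boxes, had 11. An AhR peak within 1 kb of a start was present in 3 of the 13 with a listed start, NR1D2, BHLHE40 and TEF, against 14.9% of genes. For C/EBPα this was 5 of 13, against 22.2%. NR1D2 encodes REV-ERBβ, and its window held 3 AhR peaks, against 13 at NR1D1.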

How the data were processed

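ChIP-seq of HepG2 gave 4 lists that were used here. Each deposited row names an entry and its position on hg38 (unit: other, a coordinate), and holds no measurement of any library. Per the submitters' processing notes, Bowtie2 and HOMER were used, with no version named, on hg38 and mm10. The sources used here do not state settings, filters or which libraries were joined into a list. The depth is unknown. Designs that needed values per library were left out, so no condition was tested.

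RefSeq (GRCh38.p14) supplied the gene bodies, and its promoter table the gene starts and sequences. An entry counted within 50 kb of the gene body, overlap meant at least 1 bp, and intervals are 95% Wilson. Whole-list shares and all protein-coding genes served as background, without a set test. The clock genes, the list of 17 other clock genes and the motifs were chosen with earlier results of these data known. All 10 members were named; of the other clock genes the 4 with the most AhR peaks were named, and NR1D2, TEF, neighbouring genes and the single peaks away from gene starts were named after their values were seen. Window counts and overlaps were tested on simulated data. Mouse lists were not used here. Scripts ran on Python 3.11.15 with pandas 2.3.3, NumPy 2.4.6, Matplotlib 3.10.9 and SciPy 1.17.1.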

Additional observations from a re-analysis of the deposited data

How the results depend on the processing

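Narrower rules for which entries belong to a clock gene lowered the numbers by construction. With a window of 10 kb the 10 genes held 52 AhR peaks, 48 C/EBPα peaks and 92 H3K27ac regions. Within gene bodies alone they held 38, 36 and 61, and with entries given to their nearest gene only 53, 49 and 96. Merged AhR peaks numbered 34. All 10 genes kept an AhR peak under 3 of these 4 rules and 9 did within gene bodies, where PER1 had none. Merged peaks alone left 4 genes with an AhR peak within 1 kb of a start. The share of AhR peaks with both partners was 47.2% among peaks beyond 3 kb of any gene start, a setting chosen after seeing the data, as were the distances from gene starts; under the other alternatives it stayed between 23.7% and 41.2%. The share of untreated H3K27ac regions found again in the inhibitor list stayed between 92.5% and 93.5%. A required overlap of 50% of the shorter entry could not change it, because every overlapping region had identical coordinates. No paired analysis was possible because the lists hold no values per library, and no library could be left out.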
